A study of Mus musculus with 12 samples.

Results

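The 10 genes described here encode subunits of voltage-gated calcium channels. They are Cacna1a, Cacna1b, Cacna1c, Cacna1d, Cacna1e, Cacna1g, Cacna1h and Cacna1i, which encode 8 pore-forming alpha1 subunits, and Cacna2d1 and Cacna2d3, which encode 2 auxiliary alpha2delta subunits. They were chosen by name, as the rows of the expression table whose Ensembl identifiers carry these symbols, out of 47069 distinct identifiers. All 10 were found, and all 10 were among the 18319 genes with at least 0.7 CPM (counts per 1000000 reads of the scaled library size) in at least 3 libraries.

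Total RNA was sequenced from green fluorescent protein-positive (Pdgfra/GFP+) cells sorted from Pdgfra-H2BGFP mice from embryos (E13.5) and at postnatal day 7 (P7). The 4 groups were E13.5 brain, E13.5 spinal cord, P7 brain and P7 spinal cord, with 3 libraries each, and brain meant forebrain. All animals were heterozygous for a knock-in, on a C57BL/6NJ background, that expresses a nuclear histone H2B-GFP fusion from the Pdgfra locus, so 1 Pdgfra allele was altered in every group and no group was treated. The GFP marks every cell type that uses Pdgfra, and by the study's account it lasts into early oligodendrocyte differentiation. The study also reports a gradient of GFP at P7, and it did not analyse the weaker cells, which lacked Pdgfra expression. This selection is described for P7 only and cannot be told apart from age. Each library pooled several animals. Papain was used to dissociate P7 tissue, and embryonic tissue was broken up mechanically, so age and dissociation cannot be told apart.

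A voltage-gated calcium channel opens when the membrane depolarizes and lets calcium into the cell. The alpha1 subunit holds the pore and the voltage sensors and sets the current type: L-type channels (Cacna1c, Cacna1d) open at strong depolarization and close slowly, P/Q-, N- and R-type channels (Cacna1a, Cacna1b, Cacna1e) serve transmitter release and dendritic calcium entry in neurons, and T-type channels (Cacna1g, Cacna1h, Cacna1i) open near the resting potential. Alpha2delta and beta subunits bring high-voltage-activated channels to the membrane and tune their opening, and oligodendrocyte precursor cells (OPCs) are known to carry calcium currents of these kinds.

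The pore-forming subunits differ at the ring of acidic residues that selects calcium, 1 residue from each of the 4 repeats of the protein. Stretches of 27 bases from the coding exons of repeat IV (GENCODE M21, GRCm38) are shown here because this ring separates the T-type genes, whose levels moved with age in opposite directions, from the other pore genes. Capitals mark the codon of the ring residue.
Cacna1c (chr6:118614050-118614076, minus strand): tgtgccaccggaGAGgcctggcaggac
Cacna1d (chr14:30075944-30075970, minus strand): tgtgcaacagggGAAgcctggcaggag
Cacna1a (chr8:84611599-84611625, plus strand): agcgccacaggaGAAgcgtggcacaac
Cacna1b (chr2:24635213-24635239, minus strand): agtgccactgggGAGgcctggcatgag
Cacna1e (chr1:154425975-154426001, minus strand): agtgccacggggGAGgcttggcaggag
Cacna1g (chr11:94416415-94416441, minus strand): gtctccactggtGACaactggaatggt
Cacna1h (chr17:25377771-25377797, minus strand): gtgtccactgggGACaactggaatggg
Cacna1i (chr15:80388485-80388511, plus strand): gtctccacaggcGATaactggaatggg
In Cacna1c, Cacna1d, Cacna1a, Cacna1b and Cacna1e the capitals encode glutamate, and in Cacna1g, Cacna1h and Cacna1i they encode aspartate. The same split was found in repeat III, whereas repeats I and II held glutamate in all 8 genes.

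Libraries held 12566345 to 38790312 reads. One library stood apart, E13.5 spinal cord replicate 3, in which 41.0% of reads fell on protein-coding genes against 82.4% to 91.2% in the other libraries. Its deposited library size was 0.472 times its reads, against 0.955 to 1.20 times in the other libraries, which raises its CPM values. It held reads on 21673 genes, against 24488 to 25887 in the others. Relative to the mean of the 2 other libraries of its group, its level (difference in log2(CPM + 0.5)) was lower for Cacna1e (-0.87), Cacna1c (-0.73), Cacna2d3 (-0.68) and Cacna1d (-0.52) and higher for Cacna1i (0.52) and Cacna1a (0.33). Calls that change without it are given beside the gene. Without it the members called with age in spinal cord were the same 7, and between regions at E13.5 Cacna1a (-1.05) and Cacna2d3 (-3.20) were still called. The deposited scaling of the P7 brain libraries differed from TMM, a trimmed-mean scaling, by 13.1% to 16.3%, so that the median P7 minus E13.5 difference of all genes tested in brain was -0.19 as deposited and -0.02 with TMM. OPC markers (Pdgfra, Cspg4, Olig1, Olig2, Sox10, Ptprz1) were detected in every library. They summed at E13.5 to 1204 to 2179 CPM (brain) and 606 to 1001 CPM (spinal cord). At P7 they summed to 7812 to 8728 CPM (brain) and 6635 to 6667 CPM (spinal cord). At E13.5 4 of the 6 were called higher in brain than in spinal cord, against 3.53% of all genes tested. Markers of other cells that the GFP gate can hold also differed between the groups. The 9 vascular leptomeningeal and pericyte markers summed at E13.5 to 5948 to 8999 CPM (brain) and 11265 to 12763 CPM (spinal cord), and at P7 to 1082 to 1457 CPM (brain) and 1209 to 2603 CPM (spinal cord). At P7 7 of these 9 were called lower and 1 (Rgs5, 1.16) higher in brain, and 9 of 9 lower in spinal cord. Of all genes tested, 16.7% (brain) and 18.2% (spinal cord) were called lower at P7. At E13.5 4 of these 9 were called lower in brain than in spinal cord, against 5.17% of all genes tested. The 10 neuronal markers summed at E13.5 to 827 to 1072 CPM (brain) and 839 to 1024 CPM (spinal cord), and to 468 to 539 CPM at P7, where 3 of 10 were called lower in brain, and 5 of 10 lower and 1 (Elavl3, 1.48) higher in spinal cord. None of these markers was at 0 in a whole group. Their part in the results below was not tested, and in these bulk samples fewer cells of a type and less RNA per cell cannot be told apart.

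Between E13.5 and P7, Cacna1g fell and Cacna1i rose in both regions. Cacna1b, Cacna1c, Cacna1h, Cacna2d1 and Cacna2d3 fell in spinal cord, and Cacna1d rose in brain. At E13.5 the spinal cord had more Cacna1a, Cacna1h and Cacna2d3 than the brain, and at P7 Cacna2d1 was the one member called between regions, with more in brain.

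A gene was called when limma gave a Benjamini-Hochberg adjusted p under 0.05 over all genes tested and the difference was more than 2-fold. P7 against E13.5 in brain, 3 of the 10 members were called, 2 higher and 1 lower, where 27.7% of all genes tested were called, 11.0% higher and 16.7% lower. In spinal cord 7 of 10 were called, 1 higher and 6 lower, against a background of 35.1%, 16.9% higher and 18.2% lower. Between regions at E13.5, 3 of 10 were called, all lower in brain, against 8.71%, 3.53% higher and 5.17% lower in brain. At P7, 1 of 10 was called, higher in brain, against 6.62%, 2.27% higher and 4.35% lower. The median difference of the members was 0.00 in brain and -1.31 in spinal cord for age, and -0.89 at E13.5 and 0.18 at P7 for brain minus spinal cord, beside -0.19, 0.12, 0.05 and -0.19 for all genes tested (log2).

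**Figure D1:**
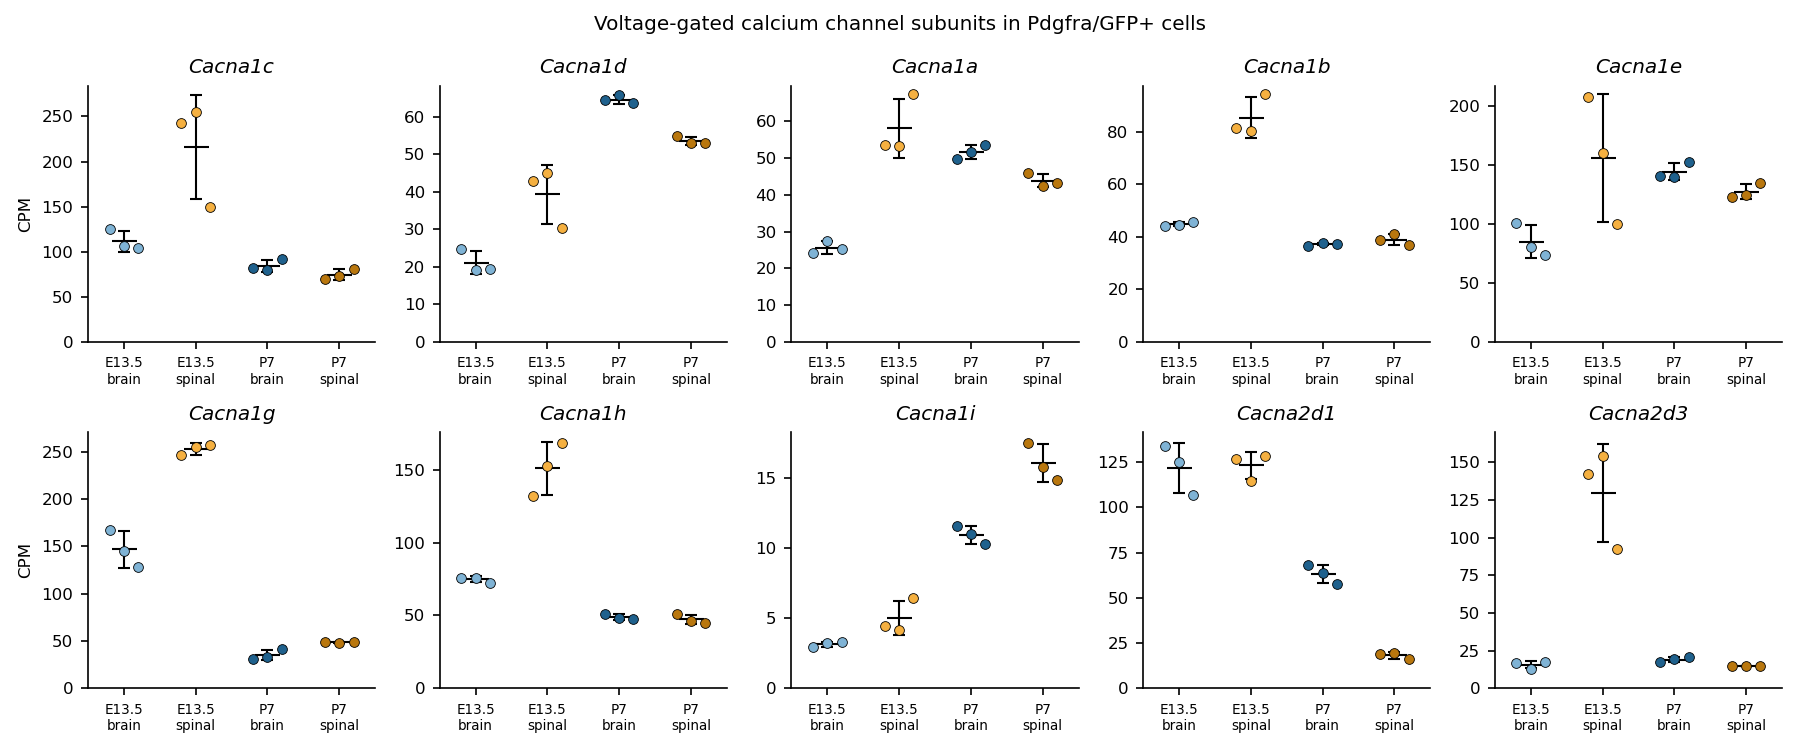
Level of each subunit gene in CPM (vertical axes, each from 0) in the 4 groups. Circles are single libraries, horizontal bars the mean of 3 and whiskers the SD. Cacna2d3 lay between 92.5 and 154 CPM in E13.5 spinal cord and between 13.0 and 20.5 CPM in the 9 other libraries.

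Cacna1g and Cacna1h encode T-type pores, and both had a higher level per kilobase of exon than Cacna1i in each of the 4 groups. Cacna1g (ENSMUSG00000020866, chr11:94408391-94474198, minus strand) stood at 167, 145 and 128 CPM in E13.5 brain and at 246, 255 and 257 CPM in E13.5 spinal cord. At P7 it stood at 30.9, 33.6 and 41.4 CPM in brain and 49.1, 48.2 and 49.0 CPM in spinal cord. The ages did not overlap in either region, and spinal cord exceeded brain at both ages. It fell by 2.04 ± 0.12 (SE) on the log2 scale in brain, 4.12-fold (adjusted p = 1.77e-08), and by 2.36 ± 0.12 in spinal cord, 5.14-fold (adjusted p = 3.03e-09). The difference between regions stayed under 2-fold at E13.5 (log2 -0.79, adjusted p = 0.000236) and at P7 (-0.47, adjusted p = 0.00852), and its change with age was 0.32 ± 0.16 (adjusted p = 0.14).

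Cacna1h (ENSMUSG00000024112, chr17:25374285-25433783, minus strand) had a lower level per kilobase of exon than Cacna1g in every E13.5 library. It stood at 76.0, 75.8 and 72.3 CPM in E13.5 brain and at 132, 153 and 168 CPM in E13.5 spinal cord. At P7 the regions overlapped, with 51.1, 48.4 and 47.5 CPM in brain and 50.9, 46.3 and 45.0 CPM in spinal cord. It fell by 1.66 ± 0.09 in spinal cord, 3.15-fold (adjusted p = 1.01e-08). In brain the difference was -0.60 ± 0.09, under 2-fold (adjusted p = 0.000117). The E13.5 difference between regions was close to the limit, 2.01-fold lower in brain (adjusted p = 6.98e-06). It dropped below 2-fold without E13.5 brain replicate 3 (-0.98), without E13.5 spinal cord replicate 2 (-0.99) or without its replicate 3 (-0.92).

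Cacna1i, the third T-type gene (ENSMUSG00000022416, chr15:80287238-80398279, plus strand), had the lowest level per kilobase of the pore genes in each group and went the other way. It stood at 2.95, 3.25 and 3.27 CPM in E13.5 brain and 4.47, 4.18 and 6.41 CPM in E13.5 spinal cord, on at least 38 reads in each library. P7 values were 11.6, 11.0 and 10.3 CPM in brain and 17.5, 15.8 and 14.9 CPM in spinal cord, above every E13.5 library. The rise was 1.65 ± 0.15 in brain, 3.13-fold (adjusted p = 1.4e-06), and 1.60 ± 0.15 in spinal cord, 3.04-fold (adjusted p = 1.13e-06). Spinal cord was higher by less than 2-fold at both ages (brain minus spinal cord -0.57 at E13.5, adjusted p = 0.0123, and -0.53 at P7, adjusted p = 0.0202).

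The L-type genes also moved apart. Cacna1c (ENSMUSG00000051331, chr6:118587240-119196418, minus strand), which encodes the pore of the widespread Cav1.2 channel, stood at 125, 106 and 104 CPM in E13.5 brain and 243, 255 and 150 CPM in E13.5 spinal cord. At P7 it stood at 81.6, 79.7 and 91.5 CPM in brain and 69.7, 72.7 and 80.9 CPM in spinal cord. Its fall in spinal cord was 1.49 ± 0.17, 2.82-fold (adjusted p = 5.26e-06), and the log2 difference was -1.74 without E13.5 spinal cord replicate 3. In brain the difference was -0.40 ± 0.17 (adjusted p = 0.0548), although the libraries of the ages did not overlap. At E13.5 brain minus spinal cord was -0.91 ± 0.17, under 2-fold (adjusted p = 0.00128). Without E13.5 spinal cord replicate 3, the lowest of its group, it was -1.16 and passed the rule.

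Cacna1d (ENSMUSG00000015968, chr14:30039939-30491455, minus strand) encodes Cav1.3, an L-type pore that opens at more negative potentials than Cav1.2. E13.5 levels were 24.7, 19.2 and 19.5 CPM in brain and 42.8, 45.0 and 30.4 CPM in spinal cord. P7 levels were 64.4, 65.9 and 63.6 CPM in brain and 54.9, 53.0 and 53.1 CPM in spinal cord, above all E13.5 libraries. The rise in brain was 1.60 ± 0.14, 3.03-fold (adjusted p = 6.64e-07). In spinal cord the difference was 0.46 ± 0.14, under 2-fold (adjusted p = 0.0092). At E13.5 the brain level was 0.87 ± 0.14 lower on the log2 scale (adjusted p = 0.000418), and 1.05 lower without spinal cord replicate 3, which then passed the rule. Part of the gene's exons, 589 bases, overlaps Chdh on the other strand, itself at a mean of 0.344 CPM.

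Of the neuronal high-voltage types, Cacna1a (ENSMUSG00000034656, chr8:84388440-84640246, plus strand) encodes the P/Q-type pore. It stood at 24.2, 27.6 and 25.2 CPM in E13.5 brain and at 53.6, 53.3 and 67.5 CPM in E13.5 spinal cord. P7 brain held 49.9, 51.6 and 53.5 CPM, near the E13.5 spinal cord, and P7 spinal cord 45.9, 42.4 and 43.2 CPM. E13.5 brain was thus the group that stood lowest, 2.23-fold under E13.5 spinal cord (log2 -1.16 ± 0.10, adjusted p = 3.71e-06). The P7 minus E13.5 difference in brain was 1.00 ± 0.10 (adjusted p = 2.56e-06), so close to 2-fold that it missed the rule as deposited and passed it in 8 of 21 alternatives, with limma-voom, edgeR and TMM among them. An antisense gene, Gm16183, shares 435 bases of its exons and had at most 0.858 CPM.

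Cacna1b (ENSMUSG00000004113, chr2:24603887-24763152, minus strand) encodes the N-type pore. Its E13.5 spinal cord libraries, at 81.5, 80.1 and 94.5 CPM, lay above all others. The E13.5 brain held 44.2, 44.3 and 45.6 CPM, the P7 brain 36.6, 37.6 and 37.4 CPM and the P7 spinal cord 38.6, 41.2 and 36.9 CPM. It fell by 1.12 ± 0.08 in spinal cord, 2.18-fold (adjusted p = 9.66e-08). The difference with age in brain was -0.26 ± 0.08 (adjusted p = 0.0146). At E13.5 brain minus spinal cord was -0.92 ± 0.08, under 2-fold (adjusted p = 4.79e-06).

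Cacna1e (ENSMUSG00000004110, chr1:154390731-154884501, minus strand) encodes the R-type pore and varied widely in E13.5 spinal cord, at 208, 161 and 99.7 CPM. E13.5 brain stood at 101, 80.6 and 73.8 CPM, P7 brain at 141, 140 and 153 CPM and P7 spinal cord at 123, 125 and 135 CPM. The ages overlapped in spinal cord and not in brain. No comparison of this gene between 2 groups was called by limma. P7 minus E13.5 was 0.77 ± 0.21 in brain (adjusted p = 0.00606) and -0.23 ± 0.21 in spinal cord (adjusted p = 0.34), and the E13.5 region difference was -0.82 ± 0.21 (adjusted p = 0.00899). Without E13.5 spinal cord replicate 3 the region difference was -1.11 and passed the rule.

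The alpha2delta genes had the steepest falls of the 10 members in spinal cord. Cacna2d1 (ENSMUSG00000040118, chr5:15934691-16374511, plus strand) encodes a subunit bound by gabapentin. E13.5 levels overlapped between regions, at 134, 125 and 107 CPM in brain and 127, 115 and 129 CPM in spinal cord. At P7 they separated, with 68.0, 63.8 and 57.8 CPM in brain and 19.1, 19.3 and 16.2 CPM in spinal cord. The fall in spinal cord was 2.73 ± 0.11, 6.63-fold (adjusted p = 6.68e-10). In brain the difference was -0.94 ± 0.11, 1.92-fold (adjusted p = 8.43e-06), and -1.03 without E13.5 brain replicate 3, which passed the rule. Brain minus spinal cord was -0.02 ± 0.11 at E13.5 (adjusted p = 0.905) and 1.77 ± 0.11 at P7, 3.41-fold higher in brain (adjusted p = 3.01e-07). In the same P7 libraries, markers of newly formed and myelinating oligodendrocytes summed to 1196 to 2747 CPM in brain and 8215 to 12114 CPM in spinal cord. The markers were Enpp6, Bcas1, Mag, Mog, Mobp, Opalin and Mbp. Their part in this difference, or in the level of any other member, was not tested.

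Cacna2d3 (ENSMUSG00000021991, chr14:28904943-29721864, minus strand) encodes a neuronal alpha2delta subunit and was high in 1 group. E13.5 spinal cord held 142, 154 and 92.5 CPM. The other groups held 16.6, 13.0 and 17.6 CPM (E13.5 brain), 17.3, 19.2 and 20.5 CPM (P7 brain) and 14.9, 15.0 and 14.7 CPM (P7 spinal cord). It fell by 3.05 ± 0.17 in spinal cord, 8.27-fold (adjusted p = 9.17e-09), and at E13.5 it was 7.87-fold lower in brain (log2 -2.98 ± 0.17, adjusted p = 1.15e-07). Without E13.5 spinal cord replicate 3 these differences were -3.27 and -3.20. The P7 minus E13.5 difference in brain was 0.27 ± 0.17 (adjusted p = 0.187), and brain minus spinal cord at P7 was 0.34 ± 0.17 (adjusted p = 0.155).

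**Figure D2:**
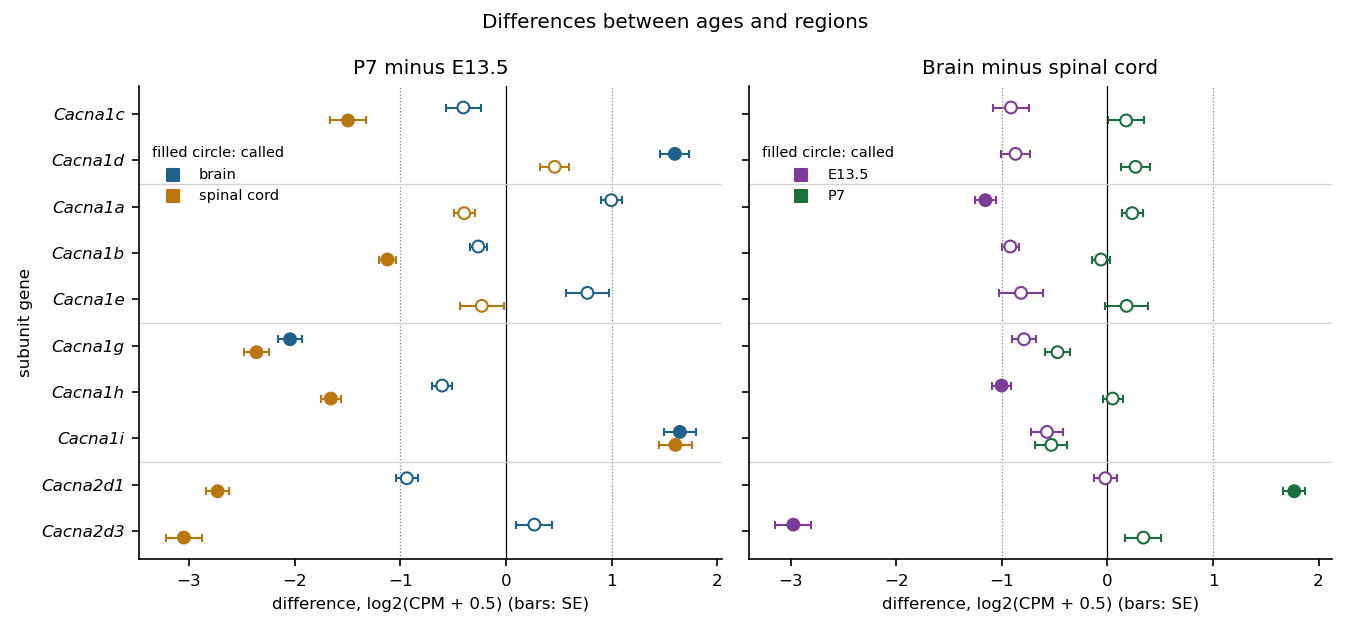
Differences between ages (left) and regions (right) for the 10 genes on the log2(CPM + 0.5) scale, with SE from limma over 12 libraries. Filled circles passed the call rule and dotted lines mark 2-fold. At E13.5 all 10 points lie at or left of 0 (-2.98 to -0.02), and at P7 the 8 pore genes lie between -0.53 and 0.27.

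Region differences of the pore genes were smaller at P7 than at E13.5, but hardly so for Cacna1i (-0.57 at E13.5 and -0.53 at P7). At E13.5 all 8 were lower in brain, by 0.57 to 1.16 on the log2 scale, and at P7 they ranged from -0.53 to 0.27. At P7 limma called 0 of the 8, with 3 at an unadjusted p under 0.05, and limma-voom and edgeR also called 0. How the region difference changed, P7 minus E13.5, was tested as a contrast of its own. It was called for 6 of the 10 members, all with a positive sign, against 16.3% of all genes tested, 6.66% with a positive and 9.66% with a negative sign. Over all genes, 1220 calls were positive and 1770 negative as deposited, 1515 and 1241 with TMM, and 1812 and 964 with median-ratio scaling. The members' median was 1.07 beside -0.24 for all genes.

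Among the pore genes the change was 1.39 ± 0.14 for Cacna1a (adjusted p = 1.9e-05), 1.14 ± 0.19 for Cacna1d (adjusted p = 0.00068), 1.09 ± 0.24 for Cacna1c (adjusted p = 0.00338) and 1.05 ± 0.13 for Cacna1h (adjusted p = 8.75e-05). The call was lost for Cacna1h without E13.5 spinal cord replicate 3 (0.97), and for Cacna1c without replicate 1 (0.99) or 2 (0.95) of that group. For the alpha2delta genes it was 3.32 ± 0.24 for Cacna2d3 (adjusted p = 2.44e-06) and 1.79 ± 0.15 for Cacna2d1 (adjusted p = 5.99e-06). In Cacna2d3 the difference was at E13.5 and in Cacna2d1 at P7. Cacna1e, at 1.00 ± 0.29 (adjusted p = 0.0168), stood at the 2-fold limit and passed it in 10 of 21 alternatives. Cacna1b, at 0.86 ± 0.12 (adjusted p = 0.000141), passed with TMM (1.05) and median-ratio scaling (1.19). Cacna1g had 0.32 ± 0.16 (adjusted p = 0.14) and Cacna1i 0.04 ± 0.22 (adjusted p = 0.899), and neither was called by limma.

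To compare levels between genes, CPM values were divided by the length of each gene's merged exons in kilobases. Cacna1g was the highest of the 10 genes in E13.5 brain, at 14.5 ± 1.94 CPM per kilobase (SD, n = 3), followed by Cacna2d1 (9.81 ± 1.09), Cacna1h (7.65 ± 0.21) and Cacna1c (5.27 ± 0.55). Neighbours in this order did not overlap except Cacna2d3 (1.81 ± 0.28) and Cacna1d (1.67 ± 0.24), and Cacna1i (0.320 ± 0.018) was last. In E13.5 spinal cord Cacna1g led again, at 24.9 ± 0.59, and Cacna1h (15.5 ± 1.87), Cacna2d3 (14.9 ± 3.76), Cacna1c (10.2 ± 2.71), Cacna2d1 (9.92 ± 0.61), Cacna1b (8.58 ± 0.80), Cacna1e (6.19 ± 2.15) and Cacna1a (5.09 ± 0.71) followed, each overlapping the next. Divided by the longest transcript instead, Cacna2d3 (35.1) came before Cacna1g (30.2) in that group.

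After birth the order was flatter and Cacna1e came first. In P7 brain Cacna1e had 5.73 ± 0.29 CPM per kilobase, above Cacna1d (5.12 ± 0.09), Cacna2d1 (5.09 ± 0.41) and Cacna1h (5.02 ± 0.19), which overlapped each other. Cacna1g was now eighth, at 3.48 ± 0.54, and Cacna1i last, at 1.11 ± 0.07. In P7 spinal cord Cacna1e (5.05 ± 0.26), Cacna1h (4.85 ± 0.32) and Cacna1g (4.81 ± 0.05) overlapped at the top. Cacna2d3 (1.71 ± 0.02), Cacna1i (1.63 ± 0.14) and Cacna2d1 (1.47 ± 0.14) overlapped at the bottom. Divided by the longest transcript instead, Cacna1e (8.55) stood above Cacna1g (5.82) and Cacna1h (5.76) in P7 spinal cord. Cacna2d3 (4.02) and Cacna2d1 (2.45) then stood above Cacna1i (1.64), so this order depended on the length used.

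**Figure D3:**
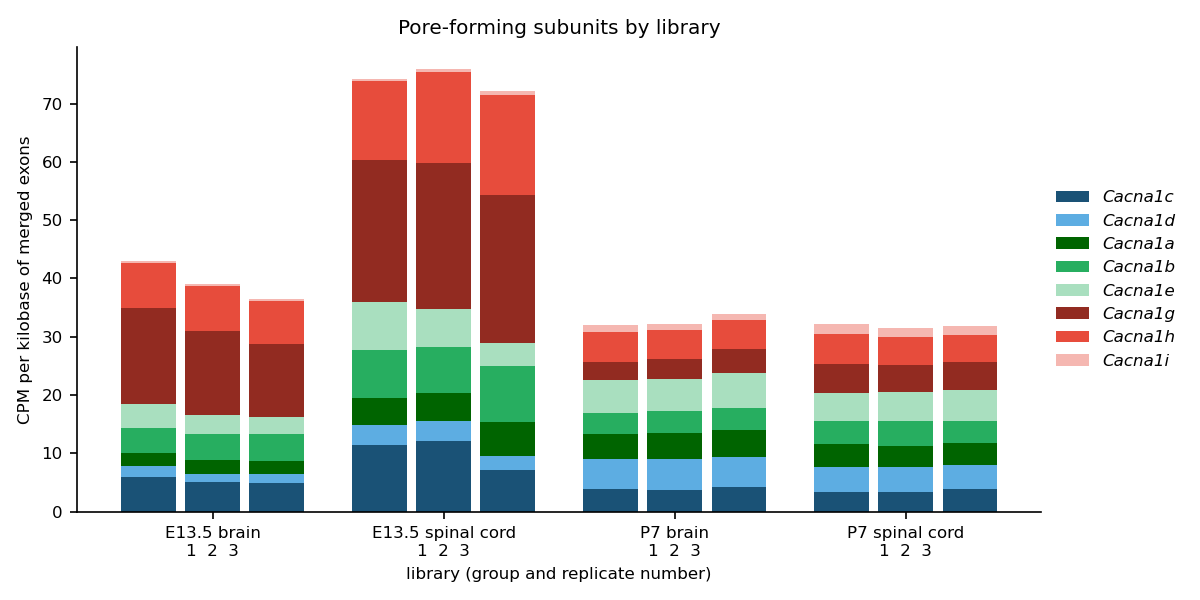
Levels of the 8 pore-forming genes in each library, in CPM per kilobase of merged exons, stacked (blue, L-type; green, P/Q-, N- and R-type; red, T-type). Each stack is 1 library. The stacks reach 72.1 to 75.9 in E13.5 spinal cord, 36.5 to 43.0 in E13.5 brain and 31.5 to 33.9 at P7.

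Summed per kilobase at E13.5, the 8 pore genes reached 39.5 ± 3.27 (brain) and 74.1 ± 1.89 (spinal cord), beside 32.7 ± 1.00 and 31.9 ± 0.35 at P7 (SD, n = 3). T-type genes made up 56.8% ± 0.94 (brain) and 55.3% ± 4.32 (spinal cord) of that sum at E13.5. At P7 they made up 29.4% ± 0.22 in brain and 35.4% ± 1.18 in spinal cord, below every E13.5 library. The P/Q-, N- and R-type genes held 25.7% ± 1.02 and 26.8% ± 1.66 at E13.5 (brain, spinal cord) and 42.8% ± 0.22 and 40.2% ± 0.54 at P7. L-type genes held 17.6% ± 0.78 and 17.9% ± 4.13 at E13.5 and 27.8% ± 0.16 and 24.4% ± 0.78 at P7. With the longest transcript as the length, the T-type share was 52.6% and 51.2% at E13.5 and 25.4% and 31.1% at P7.

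The make-up also shifted within the classes. Cacna1c held 75.9% ± 0.77 (brain) and 76.3% ± 1.46 (spinal cord) of the L-type sum at E13.5, and 43.7% ± 2.22 and 45.2% ± 2.26 at P7, with Cacna1d holding the rest. Per kilobase of the longest transcript, Cacna1c and Cacna1d stood at 6.40 and 6.69 CPM in P7 brain and at 5.66 and 5.56 CPM in P7 spinal cord. Which of them was higher in P7 spinal cord thus depended on the length used. Cacna1g held 64.3% ± 2.59 and 61.1% ± 2.40 of the T-type sum at E13.5 and 36.1% ± 4.38 and 42.7% ± 1.62 at P7. Cacna1i went from 1.44% ± 0.21 and 1.24% ± 0.24 of the T-type sum to 11.6% ± 1.02 and 14.4% ± 0.62. These shares are descriptions over 3 libraries a group.

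Promoter sequences, 250 bases before to 50 after a start site, were found in RefSeq (mm10) for 7 of the 10 members, in 10 windows. Those of the alpha2delta genes are shown because both genes fell in spinal cord with age, with the GC box (GGGCGG, either strand) in capitals.
Cacna2d1 (chr5:15934441-15934740, plus strand): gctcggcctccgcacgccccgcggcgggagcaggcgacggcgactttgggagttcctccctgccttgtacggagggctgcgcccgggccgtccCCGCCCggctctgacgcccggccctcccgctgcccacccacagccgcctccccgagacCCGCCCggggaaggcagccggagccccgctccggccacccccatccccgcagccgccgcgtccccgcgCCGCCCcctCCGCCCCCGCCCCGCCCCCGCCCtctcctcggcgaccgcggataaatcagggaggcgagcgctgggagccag
Cacna2d3 (chr14:29721815-29722114, minus strand): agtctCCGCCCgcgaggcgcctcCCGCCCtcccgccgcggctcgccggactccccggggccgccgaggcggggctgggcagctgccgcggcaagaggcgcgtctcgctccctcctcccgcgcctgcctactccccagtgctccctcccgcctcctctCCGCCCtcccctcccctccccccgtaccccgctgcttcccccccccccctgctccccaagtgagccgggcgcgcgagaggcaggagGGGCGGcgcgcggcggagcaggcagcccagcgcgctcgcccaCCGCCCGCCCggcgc
The GC box occurs 7 times in the Cacna2d1 window and 6 times in that of Cacna2d3. Of the 10 windows 5 hold it, 1 window each of Cacna1b, Cacna1c, Cacna1d, Cacna2d1 and Cacna2d3, where 35.7% of 32851 promoters of the same length do. AACAAT, a SOX core, is in 3 windows (10.7% of all promoters) and CANNTG, the E-box, in 7 (72.3%). None of these motifs contains another.

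Channels are completed by further subunits, and those genes were read from lists of the same families. Of the other pore genes, Cacna1f, the retinal L-type pore, had at most 3 reads in any library, and Cacna1s, the skeletal muscle pore, at most 1.18 CPM. Neither entered the test, nor did the alpha2delta gene Cacna2d4. Cacna2d2, another alpha2delta gene, stood at E13.5 at 15.3 ± 1.4 CPM (brain) and 35.8 ± 1.2 CPM (spinal cord), and at P7 at 25.7 ± 0.99 and 27.2 ± 1.9 CPM (SD, n = 3). It was lower in brain at E13.5 (log2 -1.21, adjusted p = 1.4e-06) and its region difference changed by 1.13 (adjusted p = 5e-05).

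All 4 beta subunit genes were tested. Of all genes tested, 11.0% were called higher and 16.7% lower at P7 in brain, and 16.9% and 18.2% in spinal cord. Among the 4, 1 was called higher and 1 lower at P7 in each region. Cacnb4 rose in both, from 15.3 ± 1.7 to 64.5 ± 0.81 CPM in brain (log2 2.04, adjusted p = 8.2e-09) and from 21.1 ± 1.2 to 108 ± 12 CPM in spinal cord (2.32, adjusted p = 1.7e-09). Cacnb2 fell in brain, from 16.6 ± 1.4 to 4.69 ± 1.3 CPM (-1.74, adjusted p = 7.6e-06). Its region difference changed with age by -1.20 (limma adjusted p = 0.0047), opposite in sign to the members, and by -0.89 with median-ratio scaling, under 2-fold. Cacnb1 fell in spinal cord, from 34.8 ± 1.1 to 15.8 ± 0.9 CPM (-1.11, adjusted p = 6.1e-07). At E13.5 it was lower in brain (-1.09, adjusted p = 5.9e-06), a call lost without E13.5 brain replicate 3 (-0.99). Its region difference changed by 1.24 (limma adjusted p = 4.1e-05). Cacnb3 was called in no comparison by limma, and its largest difference was -0.53 in brain (adjusted p = 0.00014).

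Of the 8 gamma subunit genes, several of which encode AMPA receptor partners (TARPs) rather than channel subunits, 5 were tested. At P7 4 were called higher in brain, and 3 higher and 1 lower in spinal cord. Of all genes tested, 11.0% were called higher in brain, and 16.9% higher and 18.2% lower in spinal cord. Cacng4 rose from 35.4 ± 8.1 to 193 ± 19 CPM in brain (2.45, adjusted p = 2.8e-08) and from 32.2 ± 2.4 to 136 ± 13 CPM in spinal cord (2.06, adjusted p = 7.3e-08). Cacng7 rose by 1.15 and 1.36 (adjusted p = 4.2e-06 and 6.1e-07) and Cacng8 by 1.20 and 1.86 (adjusted p = 1.6e-05 and 2e-07), in brain and spinal cord. Cacng5 rose in brain (1.89, adjusted p = 7.3e-06). In spinal cord its difference was 0.86 (adjusted p = 0.00299) and passed the rule with limma-voom (1.22) and edgeR (1.31). The region difference of Cacng5 changed by 1.03 (adjusted p = 0.0161), which fell under 2-fold without E13.5 brain replicate 1 (0.90), E13.5 spinal cord replicate 3 (0.94) or P7 spinal cord replicate 3 (0.83). Cacng2, the stargazin gene, fell in spinal cord from 4.93 ± 0.53 to 0.721 ± 0.20 CPM (-2.16, adjusted p = 1.3e-06). Its region difference changed by 1.65 (limma adjusted p = 0.00095). The genes Cacng1, Cacng3 and Cacng6 did not pass the filter.

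**Figure D4:**
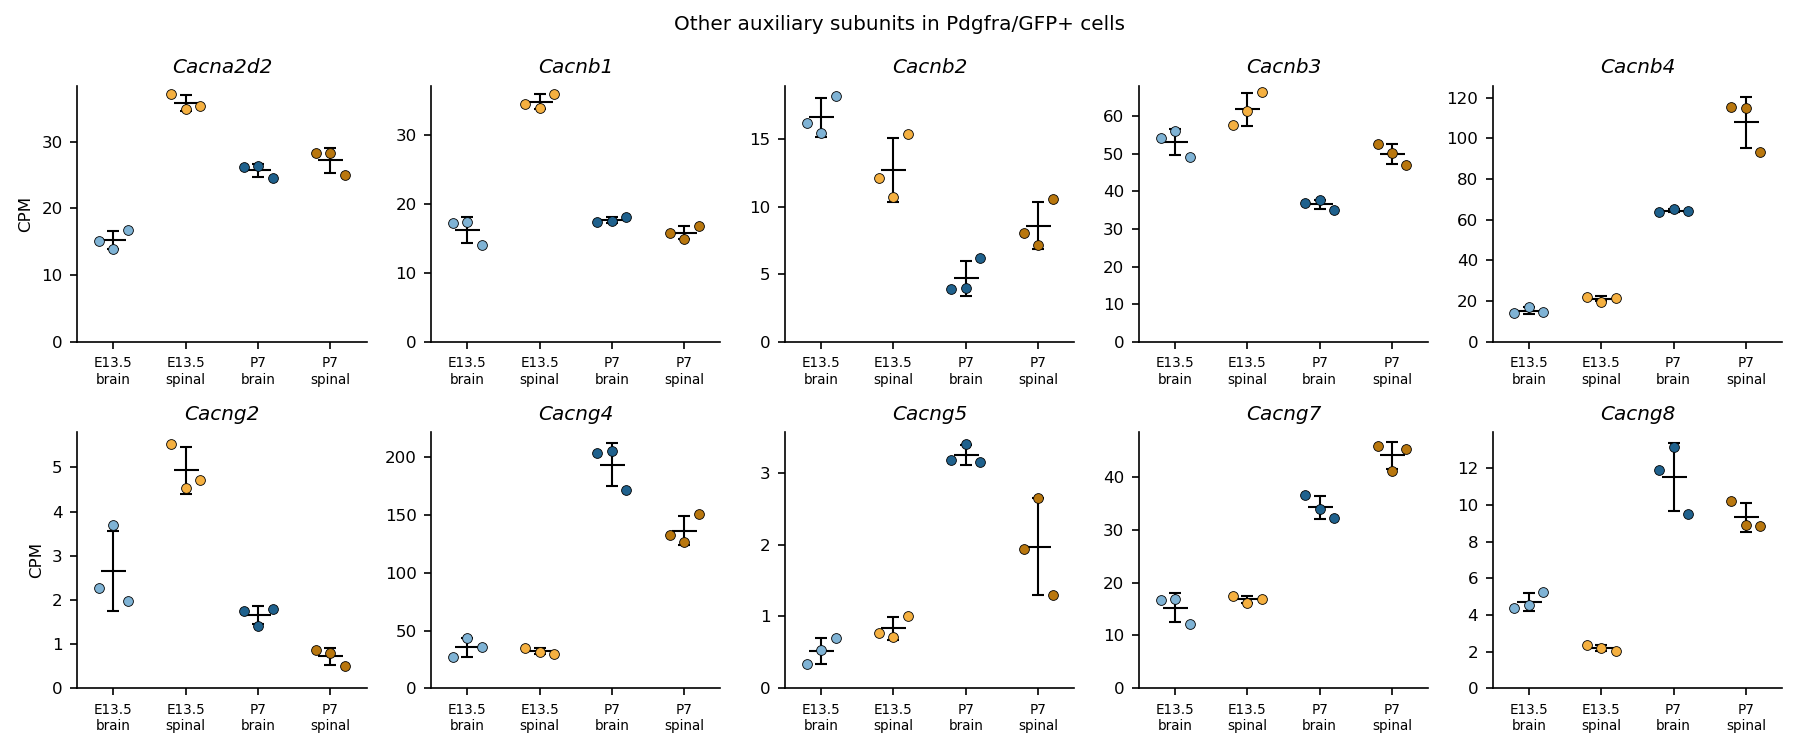
Levels in CPM (vertical axes, each from 0) of 10 further alpha2delta, beta and gamma subunit genes in the 4 groups, drawn as circles for libraries with mean and SD of 3. Cacnb4 and Cacng4 are higher in all P7 libraries than in any E13.5 library, and Cacnb1 and Cacna2d2 are highest in E13.5 spinal cord.

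RGK and Stac proteins bind the channel and change its traffic and gating. Of 7 such genes 6 were tested. At P7 limma called 2 lower in brain and 4 in spinal cord, where 16.7% and 18.2% of all genes tested were called lower, and none higher. Gem fell in brain (-1.56, adjusted p = 0.00036) and Stac in spinal cord (-2.06, adjusted p = 2.9e-06), and Stac3, known from skeletal muscle channels, fell in both (-1.45, adjusted p = 0.00018, and -1.82, adjusted p = 1.8e-05). Stac2 was lower in brain than in spinal cord at E13.5 (-2.07, adjusted p = 7.9e-05) and at P7 (-1.24, adjusted p = 0.0037), the latter under 2-fold with a pseudocount of 1 (-0.89). Smooth muscle markers (Acta2, Myh11, Tagln) summed at E13.5 to 11.8 to 17.9 CPM (brain) and 42.1 to 57.7 CPM (spinal cord) and at P7 to 1.65 to 3.59 CPM, and none of the 3 was at 0 in a whole group, and their part in these differences was not tested.

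The genes closest to each member in pattern were read from the Pearson correlation of log2(CPM + 0.5) over the 12 libraries, which share scaling and the same 4 groups. They were Ryr2 (0.97) and Vwa5b2 (0.97) for Cacna1a, Ccdc30 (0.99) and Meox2 (0.99) for Cacna1b, Antxr1 (0.99) and Cd300a (0.99) for Cacna1c, and Gpld1 (0.98) and Rasgrp2 (0.98) for Cacna1d. For Cacna1e they were Cttnbp2 (0.97) and Ntm (0.95), for Cacna1g Palld (0.99) and Gtf2ird1 (0.99), for Cacna1h Tspan5 (0.99) and Mir409 (0.99), and for Cacna1i Clip2 (0.99) and Slc12a9 (0.99). Cacna2d1 lay closest to Fam84a (0.99) and Unc5d (0.99), and Cacna2d3 to Kcnmb2 (0.99) and Slc12a5 (0.99). How many genes came this close, among all tested genes with a symbol, differed between members. Above 0.95 lay 763 genes for Cacna1g and 536 for Cacna1i, and 4 for Cacna1a and 1 for Cacna1e. Between members, the correlation was 0.97 for Cacna1b with Cacna1h and -0.81 for Cacna1g with Cacna1i.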

How the data were processed

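Total RNA libraries were made with a stranded kit. Per the study's methods and processing notes, reads were aligned with STAR 2.5.0a to mm10 (GRCm38) and counted per GENCODE M8 gene with featureCounts 1.5.0-p1. Reads mapping to several places were shared fractionally and rounded, and whether counting used strand is not given in the sources used here. The authors deposited CPM without a log, per library size times a normalization factor. In 3 of 12 columns the deposited values sum to more than 1000000, so these were treated as a signal of the same make-up. Whole reads were recovered for 100.0% of values (tolerance 0.01 reads), at 12566345 to 38790312 reads a library, and 3 reads were worth 0.079 to 0.506 CPM, which covers counting error only. No column of values was left out (0).

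Groups and replicate numbers came from the sample titles. The labels do not say whether the pools of a group were separate animals, and p-values measure the spread between these libraries. The study used limma with voom. Here limma 3.58.1 (R 4.3.3) with an intensity trend was fitted to log2(CPM + 0.5) for 18319 genes (0.7 CPM or more in 3 or more libraries), with 4 group means over 12 libraries and 5 two-sided contrasts. Fold changes on this scale understate those of low genes. P-values were Benjamini-Hochberg adjusted over all genes tested, and the call rule was adjusted p under 0.05 and more than 2-fold. Alternatives were pseudocounts of 0.1 and 1, no filter, TMM and median-ratio scaling, limma-voom and edgeR 4.0.16 quasi-likelihood on recovered reads, a replicate block, P7 replicates 1 and 2 averaged, each library left out, and the longest transcript as the length. On simulated counts with 200 changed genes for P7 minus E13.5 in brain, limma recovered 199 of them with 0 false calls. The planted changes were larger than the 2-fold limit and left out the lowest genes. All genes shared the same simulated dispersion, and no library stood apart. This recovery therefore cannot speak to calls near 2-fold. Symbols and lengths came from GENCODE M21 and promoters from RefSeq.

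The members and lists were chosen with earlier results of these data known. Named are all 10 members, the listed pore, alpha2delta, beta and gamma genes that were tested or are stated not to be, for the other lists the 2 called genes that moved most up and down, and the 2 genes closest to each member in pattern. One gene of these lists is not reported here.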

Additional observations from a re-analysis of the deposited data

Results flagged for a closer look

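The region difference itself differed between the ages for 6 of the 10 members, by limma's contrast of brain minus spinal cord at P7 against the same at E13.5. On the log2 scale this change was 3.32 for Cacna2d3, 1.79 for Cacna2d1, 1.39 for Cacna1a, 1.14 for Cacna1d, 1.09 for Cacna1c and 1.05 for Cacna1h. Cacna2d3 went from -2.98 at E13.5 to 0.34 at P7 and Cacna2d1 from -0.02 to 1.77. The formal test for a single outlying library was not applied to groups of 3, and the values without each library are among the settings described in the next section.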

How the results depend on the processing

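For the 10 members over 5 comparisons and 21 settings beside the reported one, 1008 values kept direction and side of the call rule, 26 newly passed it, 7 no longer passed it and 9 turned in sign. The count of members called between regions at E13.5 was 3 as reported and 5 with median-ratio scaling, and leaving out 1 library gave 2 to 5. Without E13.5 spinal cord replicate 3 it was 5, gaining Cacna1c, Cacna1d and Cacna1e and losing Cacna1h. For the other comparisons leaving out 1 library gave 3 to 4 members for age in brain, 7 for age in spinal cord, 1 between regions at P7 and 5 to 7 for how the region difference changed.

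Of values that turned in sign, leaving out 1 library gave -0.52 (without E13.5 spinal cord replicate 3) to 0.0097 (without replicate 1) for Cacna1e with age in spinal cord. Between regions at E13.5 it gave -0.091 to 0.069 for Cacna2d1, with 0.011 without E13.5 spinal cord replicate 3, and -0.046 to 0.29 for Cacng4. Cacna1i ranged from -0.13 (without E13.5 spinal cord replicate 3) to 0.15 in its change of region difference, and was -0.0038 with limma-voom. Between regions at P7 Cacna1b was 0.13 with TMM and 0.17 with median-ratio scaling, and Cacna2d2 0.11 and 0.15. With median-ratio scaling the change of region difference was 0.098 for Cacnb3, 0.053 for Cacnb4 and 0.12 for Cacng7. The cause was not tested. With the longest transcript as the length, 34 of the 40 levels per kilobase moved by at least the SD of their group, and 6 moved less.

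The replicate numbers were not shown to pair the samples, since deviations of same-numbered libraries correlated at 0.27 between the E13.5 regions, 0.03 between the P7 regions and below 0 between ages. With the replicate number as a block 3, 7, 3, 1 and 6 members were called, as without it, and the block changed no other call of a member. With 3 libraries a group, and with Cacna1a, Cacna1e and Cacna1h each at the 2-fold limit in 1 comparison, counts of calls move by 1 or 2 with small changes in processing.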

Other observations

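Genes that handle calcium once it is in the cell or in its stores were read from 3 further lists, with the 2 called genes of largest change named in each direction. Of 14 store release and refilling genes, 4 were higher and 3 lower at P7 in brain, and 4 higher and 4 lower in spinal cord. Beside these counts, the share of all genes tested that was called higher was 11.0% (brain) and 16.9% (spinal cord), and the share called lower was 16.7% and 18.2%. The 3 inositol trisphosphate receptor genes differed in direction. Itpr2 rose from 53.0 ± 4.4 to 693 ± 117 CPM in brain (SD, n = 3, log2 3.69, limma adjusted p = 2.1e-08) and from 76.5 ± 25 to 845 ± 49 CPM in spinal cord (3.52, adjusted p = 1.7e-08), while Itpr3 fell by 2.79 and 3.40 (adjusted p = 3.8e-08 and 4.1e-09). Itpr1, named after its values were seen, fell in spinal cord (-1.91, adjusted p = 7e-05) and had -0.86 in brain (adjusted p = 0.021). Ryr2, a ryanodine receptor gene and, of the genes searched, the closest to Cacna1a in pattern, rose in brain (1.80, adjusted p = 4.8e-09). At E13.5 it was lower in brain than in spinal cord (-1.81, adjusted p = 2.5e-08). Ryr1, known from skeletal muscle, fell in both regions (-1.35, adjusted p = 0.00031, and -2.93, adjusted p = 2.3e-07), and Atp2a1, a calcium pump gene of skeletal muscle, was lower in brain than in spinal cord at E13.5 (-1.95, adjusted p = 2.2e-05). Orai1, a store-operated channel gene, rose in spinal cord (1.65, adjusted p = 7.05e-05) and brain (1.61, adjusted p = 0.000116).

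Of 8 calcium extrusion genes, 4 were called higher at P7 in brain, none lower, and 2 were higher and 1 lower in spinal cord. Beside these and the calmodulin counts below, 11.0% of all genes tested were called higher and 16.7% lower in brain. In spinal cord these shares were 16.9% and 18.2%. The sodium-calcium exchanger genes Slc8a3 (2.06 and 1.81, adjusted p = 1.3e-08 and 2e-08) and Slc8a2 (1.71 and 1.17, adjusted p = 5e-07 and 9.7e-06) rose in both regions. Slc8b1, the mitochondrial exchanger, fell in spinal cord (-2.38, adjusted p = 9.4e-07). Of 10 genes of calmodulin and its targets, 2 were higher at P7 in brain (Camk2b, 2.12, adjusted p = 4e-09, and Camk4, 1.65, adjusted p = 1.5e-05), and in spinal cord Camk2a was lower (-1.48, adjusted p = 1.3e-06). Camk2a, the alpha chain of calmodulin kinase, was called between regions at P7 by limma, at 13.8 ± 0.45 CPM in brain and 1.32 ± 0.28 CPM in spinal cord (2.98, adjusted p = 5.9e-08).

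Markers of other cells were also present. The 5 astrocyte markers summed to 863 to 1172 CPM at E13.5 and 262 to 594 CPM at P7. The lower sum at P7 did not hold for each marker. From E13.5 to P7 in brain, limma called 3 of the 5 up and 1 down (median log2 1.91). The spinal cord had 2 up and 2 down (median -0.51). Of all genes tested, 11.0% were called up and 16.7% down in brain, and 16.9% and 18.2% in spinal cord. At P7, 2 of the 5 had a called excess in brain over spinal cord, against 2.27% of all genes tested. Endothelial markers summed to 13.1 to 94.7 CPM, microglial markers to 15.7 to 70.9 CPM and globin genes to 6.36 to 122 CPM over the 12 libraries. Hbb-y was at 0 in both P7 groups. The part of these markers in the members' levels was not tested.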
